A study of Mus musculus with 4 samples.

Results

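The genes of cytoplasmic ribosomal proteins were examined for open chromatin at their ends in lung tumours of 4 mice. Members were the autosomal protein-coding genes of the mm10 genome whose symbol is Rpl or Rps followed by a number and at most one of the letters a, b, l, x or y, or Rplp0, Rplp1 and Rplp2. The rule gave 76 genes, 47 of the large and 29 of the small subunit, of 20665 autosomal protein-coding genes. They lie on 18 chromosomes, 14 of them on chromosome 7. The rule leaves out the X-linked members, Rpsa, Fau, Rps3a1 and Rpl22l1, whose symbols do not follow the pattern, and pseudogenes.

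ATAC-seq, which reads where a transposase can cut and tag the DNA, was applied to 40 to 50 mg of snap-frozen lung tumour per mouse, at an age of 55 weeks and labelled as strain C57B6J. One genotype carried KrasLA1/+ and Dicer1S2D/+ (2 libraries, KrasLA1;Dicer1S2D), and the other carried KrasLA1/+ (2 libraries, KrasLA1). KrasLA1 is a latent oncogenic allele, shared by all 4 mice, that is activated by spontaneous recombination, and Dicer1S2D is an allele, here in one copy, made to mimic phosphorylated Dicer1. The labels do not state how many tumours of a mouse went into its sample. In each group replicate 1 was female and replicate 2 male, so sex and replicate number cannot be told apart. The table used holds the start and end of each peak, called in each library on its own, and of 61972 merged regions. A peak has no height or count, the sequencing depth is unknown, and a peak under the unknown calling threshold is recorded as absent.

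A ribosome joins a large subunit, which forms peptide bonds, to a small subunit, which reads the message, and each subunit is built of ribosomal RNA and one copy of most of its proteins. The protein genes are transcribed in nearly every cell at a high rate from short promoters rich in CpG, and many of their messages begin with a C and a run of pyrimidines, the terminal oligopyrimidine tract through which mTOR signalling controls their translation. A few copies of these genes are used in single tissues: Rpl10l and Rpl39l in the testis, where they stand in for X-linked parents, and Rpl3l in heart and skeletal muscle.

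Markers of the tissue were checked for peaks near their ends, by the same 2 kb limit. All 10 lung epithelial markers, among them Nkx2-1, Sftpc and Epcam, had such a peak in every library, as did 2 of 7 immune markers (Cd68 and Spi1), and 0 of 3 endothelial markers had one in any library. Of the fibroblast and smooth muscle markers Col1a1 had a peak in every library, Acta2 only in the KrasLA1 libraries and Pdgfra in none, while of the liver markers Apoa2 had one in every library and Alb in KrasLA1;Dicer1S2D replicate 1 only. The libraries held 50282 and 34767 peaks in KrasLA1;Dicer1S2D replicates 1 and 2, and 41621 and 44654 in KrasLA1 replicates 1 and 2. The tumours are bulk tissue, so fewer cells of a type and less open chromatin per cell cannot be told apart.

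Reference promoter sequences from RefSeq (GRCm38.p6, the primary assembly of mm10) were found for 56 of the 76 genes, and 4 are printed to show what the open and the uncalled starts look like. Each runs 5′ to 3′ from 250 bases before the annotated start to the first 20 bases from it, and capitals mark the motif letters that were searched. Rps6 (chr4:86857348-86857617, minus strand) encodes the small subunit protein that S6 kinases phosphorylate, and Rps19 (chr7:24884342-24884611, plus strand) a small subunit protein mutated in human Diamond-Blackfan anaemia. Both starts lay in a peak in every library. Rpl13a (chr7:45128726-45128995, minus strand), a large subunit gene, and Rpl10l (chr12:66284382-66284651, minus strand), the testis copy of Rpl10, had no peak over the start in any library.
Rps6: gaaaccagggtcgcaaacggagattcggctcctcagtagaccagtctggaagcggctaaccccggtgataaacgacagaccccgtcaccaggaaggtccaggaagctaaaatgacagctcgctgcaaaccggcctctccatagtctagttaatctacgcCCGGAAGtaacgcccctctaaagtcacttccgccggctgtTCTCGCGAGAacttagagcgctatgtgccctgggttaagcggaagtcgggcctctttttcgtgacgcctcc
Rps19: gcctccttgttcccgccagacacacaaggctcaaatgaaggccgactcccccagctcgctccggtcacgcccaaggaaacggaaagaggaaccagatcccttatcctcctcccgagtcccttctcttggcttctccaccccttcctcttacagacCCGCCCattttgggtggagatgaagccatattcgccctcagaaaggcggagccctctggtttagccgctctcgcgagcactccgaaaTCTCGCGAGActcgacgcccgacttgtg
Rpl13a: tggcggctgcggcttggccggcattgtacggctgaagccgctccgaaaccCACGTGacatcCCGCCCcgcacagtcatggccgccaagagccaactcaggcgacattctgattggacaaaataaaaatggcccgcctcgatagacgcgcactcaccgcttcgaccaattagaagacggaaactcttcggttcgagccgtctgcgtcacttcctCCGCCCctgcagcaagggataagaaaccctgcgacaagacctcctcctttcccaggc
Rpl10l: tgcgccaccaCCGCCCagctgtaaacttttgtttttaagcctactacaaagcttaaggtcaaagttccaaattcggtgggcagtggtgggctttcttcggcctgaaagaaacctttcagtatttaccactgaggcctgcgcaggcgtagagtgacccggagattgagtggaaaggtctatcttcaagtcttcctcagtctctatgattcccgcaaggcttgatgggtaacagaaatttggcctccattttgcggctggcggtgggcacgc
In Rps6 the capitals are CCGGAAG (letters bound by ETS factors such as GABPA) and then the palindrome bound by ZBTB33 or BANP. In Rps19 they are GGGCGG on the opposite strand (SP and KLF factors) and the same palindrome at the start, in Rpl13a the E-box CACGTG and GGGCGG on the opposite strand, and in Rpl10l GGGCGG on the opposite strand.

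The ends of most ribosomal protein genes were open in every tumour. Gene-end peaks, those within 2 kb of either end, were called in 68 and 66 of the 76 genes in KrasLA1;Dicer1S2D replicates 1 and 2, and in 68 and 67 in KrasLA1 replicates 1 and 2. These counts averaged 67 ± 1.4 genes in KrasLA1;Dicer1S2D and 67.5 ± 0.71 genes in KrasLA1 (SD, n = 2 each), a difference smaller than the spread within either group. All 4 libraries had a peak at 66 of the 76 genes (86.8%), against 54.7% of all autosomal protein-coding genes. The large subunit had 40 of 47 genes open in all 4 libraries, and the small subunit 26 of 29. Another 2 genes had a peak in some libraries, and 8 had none in any (10.5%, against 35.8% of all genes).

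Other genes of the translation apparatus were open at like shares. Of 78 genes of mitochondrial ribosomal proteins, which build the separate ribosome of that organelle, 70 (89.7%) had a gene-end peak in all 4 libraries and 4 (Mrpl47, Mrpl49, Mrpl53 and Mrps12) in none. Ribosome biogenesis genes reached 23 of 24, the exception being Ubtf, a factor of RNA polymerase I, with no peak in any library. Among translation factors 17 of 19 were open in all 4 libraries, all but Eef2 and Eif2s1, which each had a peak in some. Rpsa and Fau, ribosomal proteins outside the symbol rule, were open in all 4. In these lists 0 genes had a gene-end region called in both libraries of a genotype and in none of the other. Over all genes 0.271% had such a region in KrasLA1;Dicer1S2D and 0.905% in KrasLA1, so the count is near the background.

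**Figure D1:**
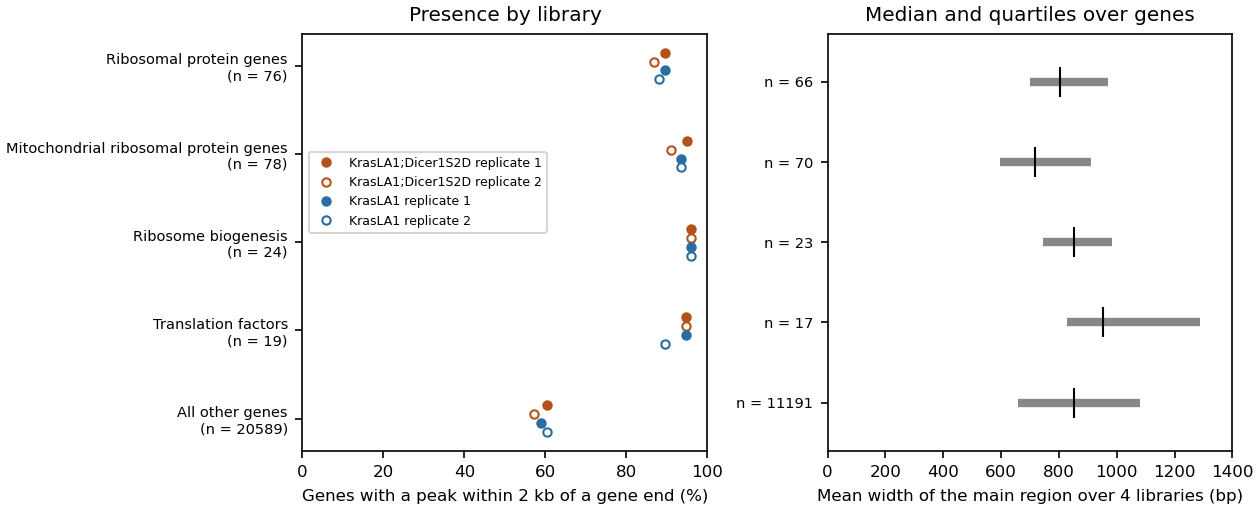
Left, percent of genes in each set with a gene-end peak (2 kb limit), 1 point per library, KrasLA1;Dicer1S2D in orange and KrasLA1 in blue. Right, median (tick) and quartiles (bar) of the width of the main gene-end region in bp, averaged over the 4 libraries. Ribosomal protein genes lie at 66 to 68 of 76 in every library, and their median width is 805 bp against 850.5 bp for all other genes.

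The 8 genes with no gene-end region in any library included genes of core proteins of the ribosome, among them Rpl3, Rpl13a, Rpl15, Rps21 and Rps29. They also included Rpl39l, the testis copy, and Rpl32l, named for its likeness to Rpl32. The nearest region lay 7457 bp from Rpl13a (chr7:45125563-45128745). At Rpl3 (chr15:80077781-80083406), a protein at the peptidyl transferase centre, the nearest region was 7462 bp away. The distance was 16494 bp at Rpl15 (chr14:18267823-18270986), 5840 bp at Rps21 (chr2:180257379-180258444) and 9139 bp at Rps29 (chr12:69157722-69159186). The interval numbers of all 5 tracks ran without a gap, so the table lists no region there that was passed over. The nearest region lay over 5 kb from each of the 8 genes. A 5 kb window, or joining peaks up to 500 bp apart, could therefore add none and is no further check. Many ribosomal protein genes have near-identical processed pseudogenes, and the sources used here do not give how reads with several matches in the genome were treated. Its part in these absences was not tested.

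The 2 genes with a gene-end peak in some libraries were Rpl10l and Rpl19. Rpl10l had a peak 455 bp from the gene, 328 bp wide in KrasLA1;Dicer1S2D replicate 1 and 311 bp wide in KrasLA1 replicate 1, and none in either replicate 2. The gene-end region of Rpl19 (chr11:98022386-98023262) overlapped the neighbouring calcium channel subunit gene Cacnb1 and was 506 bp wide in KrasLA1;Dicer1S2D replicate 1, uncalled in replicate 2, and 721 and 725 bp wide in KrasLA1 replicates 1 and 2. The annotated start of Rpl19 itself lay inside the gene record, over 2 kb from both ends, in a second region (chr11:98026438-98027336) of 428 and 614 bp in KrasLA1;Dicer1S2D and 639 and 899 bp in KrasLA1. Rpl18 was alike: its start lay in a region of 380 and 652 bp in KrasLA1;Dicer1S2D and of 520 and 792 bp in KrasLA1 (chr7:45717736-45718527), outside the 2 kb windows, while the region counted at its end was another. The starts of both genes were thus open in every library.

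Counting the annotated start in place of the gene ends gave a like share. A peak covered a start in all 4 libraries in 49 of the 56 genes with a reference start (87.5%), against 50.8% of all genes with one. The other 7 had none in any library (12.5%, against 44.2% of all genes): Rpl10l, Rpl39l, Rpl32l, Rpl3l, Rpl13a, Rpl15 and Rps21. The tissue copies Rpl10l, Rpl39l and Rpl3l were thus all without a called start in these tumours. Rpl3l was counted among the 66 open genes through a region 30 bp beyond its far end (chr17:24736173-24736908, 664 and 691 bp wide in KrasLA1;Dicer1S2D and 686 and 676 bp in KrasLA1) that also lies at an end of Msrb1, a methionine sulfoxide reductase gene. Among promoters with an observed to expected CpG ratio of at least 0.6, a start peak in all 4 libraries was found in 44 of 48 ribosomal protein genes (91.7%), 57 of 64 mitochondrial ribosomal protein genes (89.1%) and 6475 of 8136 of all other genes (79.6%). The 4 members of that class without a called start were Rpl13a, Rps21, Rpl39l and Rpl10l, and Rpl15 lay just under it at 0.596.

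**Figure D2:**
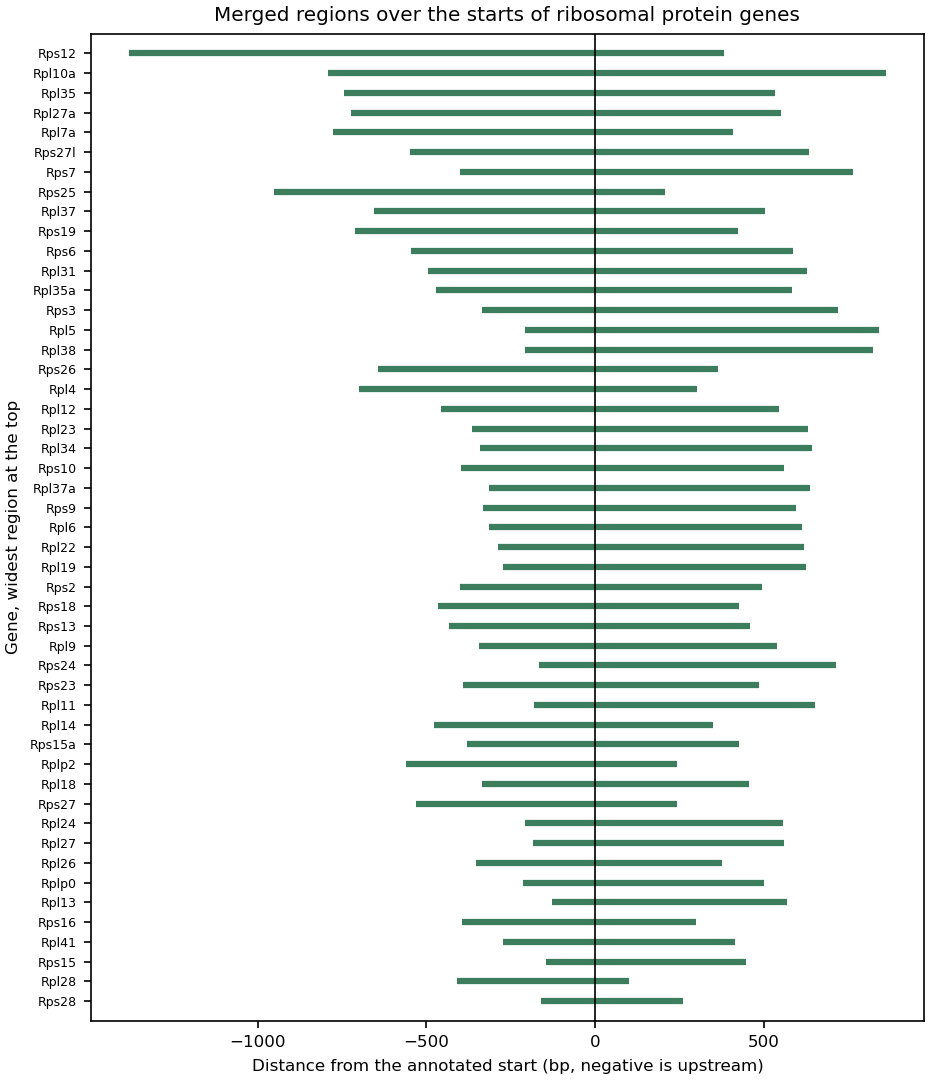
Extent of the merged region over the annotated start of the 49 ribosomal protein genes with one in all 4 libraries, as distance in bp from the start, with negative values upstream and the widest region at the top. The median region reached 396 bp upstream and 539 bp downstream, and that of Rps12, a small subunit protein gene, ran from position -1382 to 383.

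Open regions covered the start on both sides and reached further into the gene. The median region extended 396 bp upstream and 539 bp downstream of the start over the 49 genes, against 417 and 549 bp over the 8542 such regions of other genes. Rps25, a small subunit protein, had a region from position -951 to 207 relative to the start, so mostly upstream. Rpl13, a large subunit protein, had the one that reached least upstream, from -128 to 570. The widths at these starts, averaged over the libraries, had a median of 797.5 bp (quartiles 685 and 931 bp) in ribosomal protein genes and of 856.5 bp (668 and 1087 bp) in other genes. The quartiles of the ribosomal protein genes thus lay within those of the other genes.

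The letters around the starts were compared with those of other promoters, as a description with no test. CCGGAAG, searched on both strands as were all motifs but TATAAA, was found in 22 of 56 promoters (39.3%), against 20.3% of other genes with a called start and 12.3% of all 16457 promoters, and in 36.2% of those of mitochondrial ribosomal proteins. The ZBTB33 or BANP palindrome stood in 5 of 56 (8.93%: Rpl12, Rpl26, Rps6, Rps19 and Rps28), against 1.17% of other open starts and 0.711% of all. The cyclic AMP response letters TGACGTCA were found in 8.93%, against 3.71% of other open starts and 2.42% of all. GGGCGG was in 55.4%, below the 68.7% of other open starts and above the 47.3% of all. TATAAA (read on the given strand only) was in 7.14%, above the 3.89% of other open starts and below the 9.08% of all. AAGATGGC (YY1) was in 7.14%, against 4.96% of other open starts and 3.23% of all. The NRF1 palindrome was in 1.79% and CACGTG in 8.93%, both between the shares of other open starts (2.3% and 10.8%) and of all (1.36% and 7.96%). No motif contains another, and each share is over 300-base promoters (250 bases before the start and 50 from it), with the first listed promoter of a gene. The shares of ribosomal protein genes are over all 56, of which 7 had no called start. Over the 49 with one, CCGGAAG stood in 38.8%, the ZBTB33 or BANP palindrome in 10.2%, TGACGTCA in 10.2% and GGGCGG in 55.1%. TATAAA and AAGATGGC stood in 6.12% each, the NRF1 palindrome in 2.04% and CACGTG in 8.16%.

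A C followed by at least 4 more pyrimidines began at the annotated start in 13 of 56 promoters (23.2%), against 1.94% of other open starts, 2.18% of all promoters and 0 of 69 of the mitochondrial ribosomal proteins. The start base was C in 35.7% of the ribosomal protein genes, in 14.6% of other open starts and in 13.8% of all. G was as frequent in the ribosomal protein genes, at 35.7%, against 48.7% of other open starts and 39.2% of all. Over the 49 ribosomal protein genes with a called start, the pyrimidine start was found in 20.4% and the start base C in 34.7%. The windows printed here run 20 bases either side of the start of 6 of the 13, with the unbroken pyrimidine stretch over the start in capitals. Rps6, Rps18, Rpl35 and Rpl28 had an open start, and Rpl15 and Rps21 had none called.
Rps6: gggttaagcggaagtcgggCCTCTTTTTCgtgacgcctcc
Rps18: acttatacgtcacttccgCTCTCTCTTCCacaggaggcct
Rpl35: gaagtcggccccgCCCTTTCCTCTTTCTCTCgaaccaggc
Rpl28: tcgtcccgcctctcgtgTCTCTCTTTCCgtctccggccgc
Rpl15: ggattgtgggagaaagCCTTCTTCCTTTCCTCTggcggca
Rps21: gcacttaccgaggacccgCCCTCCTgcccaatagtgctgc
Their positions are chr4:86857348-86857387 for Rps6, chr17:33955646-33955685 for Rps18, chr2:39005112-39005151 for Rpl35, chr7:4792945-4792984 for Rpl28, chr14:18270967-18271006 for Rpl15 and chr2:180257359-180257398 for Rps21. The stretch was 18 bases long in Rpl35 and 17 in Rpl15. A run beginning within 10 bases of the annotated start was found in 34 of 56 (60.7%), against 31.6% of other open starts and 31.6% of all promoters. It was present in 27 of the 49 promoters with a called start and in all 7 without one.

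**Figure D3:**
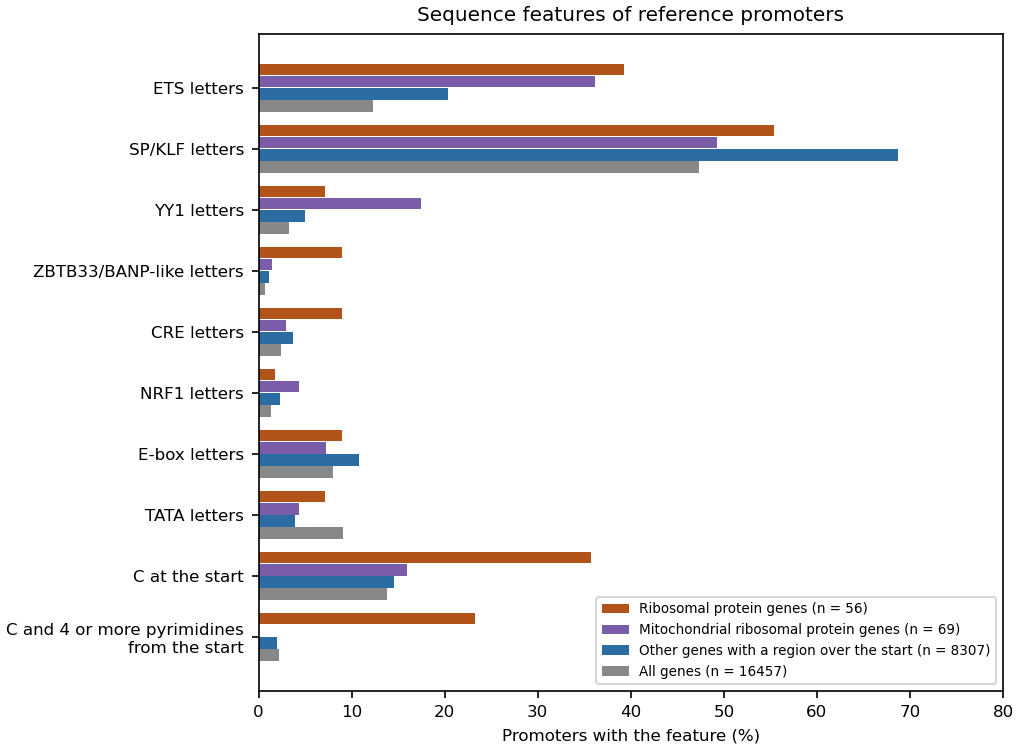
Percent of reference promoters with each set of motif letters, with C as start base, and with C and at least 4 further pyrimidines from the start, for ribosomal protein genes, mitochondrial ribosomal protein genes, other genes with a region over the start in all 4 libraries, and all genes. CCGGAAG (ETS) reached 39.3% in ribosomal protein genes against 12.3% of all genes, and the pyrimidine start 23.2% against 2.18%.

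The width of the open region varied more between genes than between tumours. For each of the 66 genes the main region was the gene-end region with the largest mean width among those called in all 4 libraries, and its width in a library is the summed length of that library's peaks in it. These widths ran over the genes from 309 bp at Rps28 to 1981 bp at Rpl7, with a median of 805 bp and quartiles of 701 and 970 bp, against 850.5 bp (660 and 1080 bp) for other genes and 719 bp for mitochondrial ribosomal protein genes. Within a gene the widest library was 1.25 times the narrowest in the median, against 1.33 times for other genes. Of the 66 regions, 23 also lay within 2 kb of an end of another protein-coding gene.

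**Figure D4:**
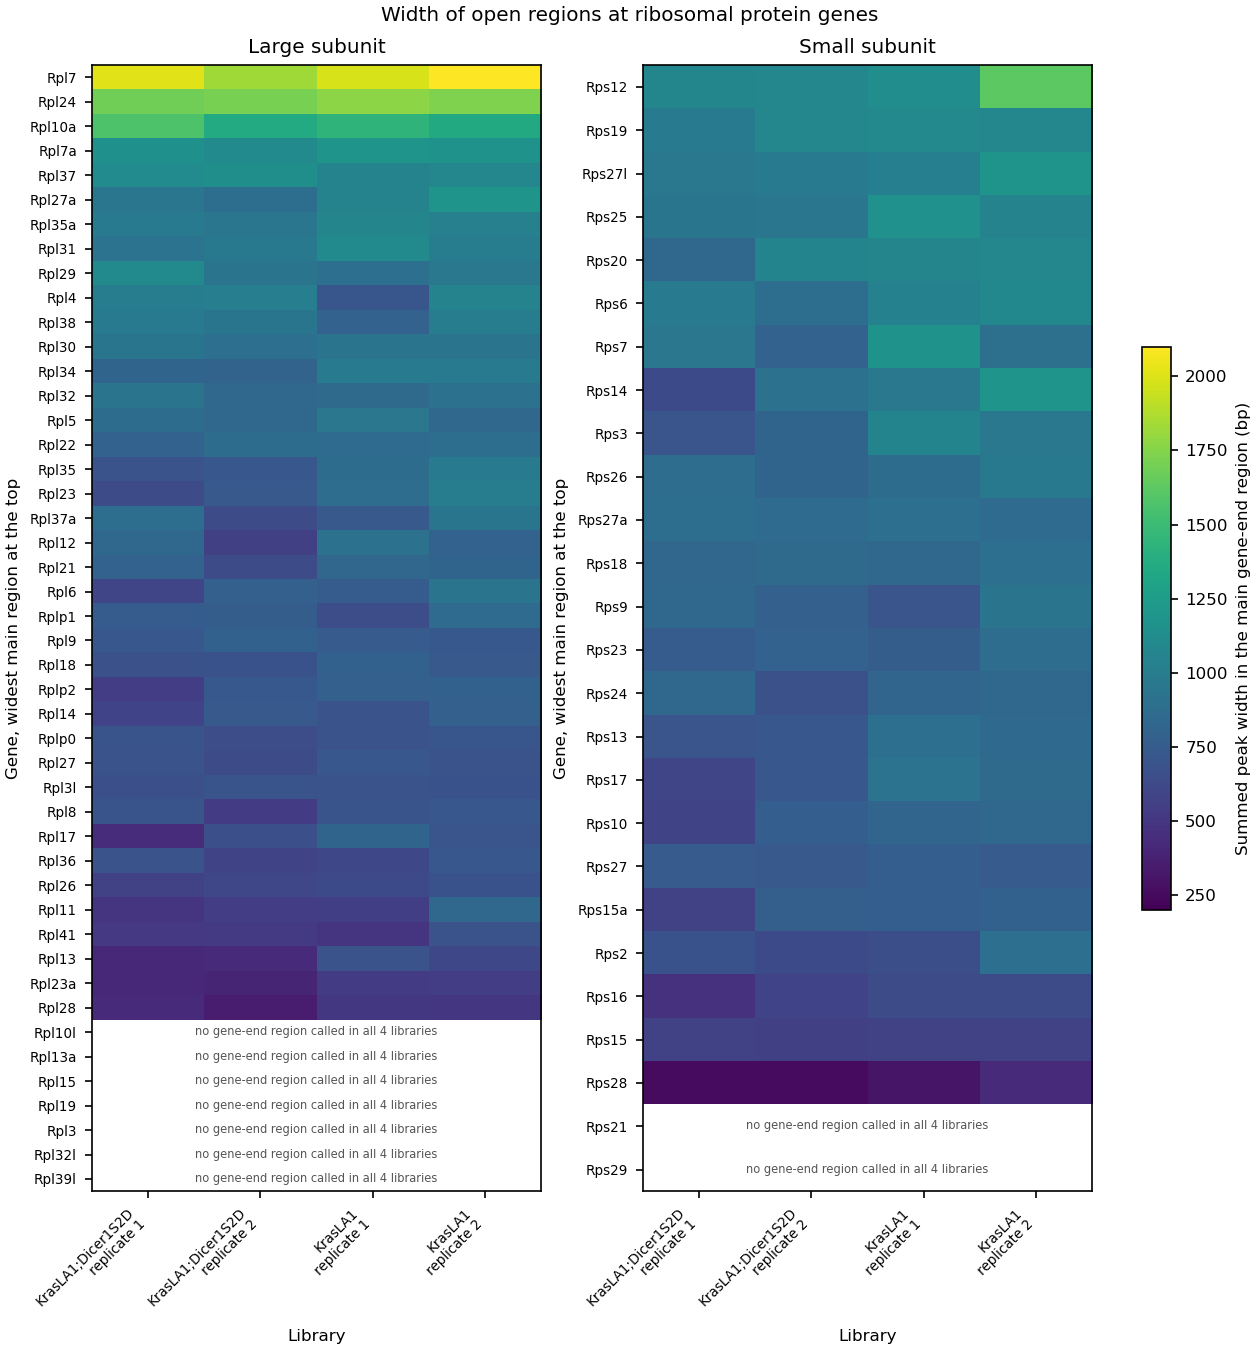
Width in bp of the main gene-end region of 72 of the 76 ribosomal protein genes in each library, by colour, with the genes of each subunit ordered by mean width. Blank rows are the 9 genes drawn without a region in all 4 libraries. Rpl7, Rpl24 and Rpl10a are the widest rows, and Rps28 the narrowest.

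The widest regions were often shared with a neighbour. Rpl7, a large subunit protein, had 2017 and 1828 bp in KrasLA1;Dicer1S2D replicates 1 and 2, against 1986 and 2094 bp in KrasLA1 replicates 1 and 2, in a region that also lies at an end of the retinol dehydrogenase gene Rdh10 (chr1:16104178-16106271). Rpl24, a large subunit protein mutated in the Belly spot and tail mouse, had 1691 and 1707 bp in KrasLA1;Dicer1S2D and 1772 and 1735 bp in KrasLA1. That region lay 1993 bp outside the gene at an end of Zbtb11, and the region over Rpl24's own start was narrower, at 593 and 587 bp in KrasLA1;Dicer1S2D and 709 and 737 bp in KrasLA1. Rpl10a, another large subunit protein, had 1570 and 1363 bp in KrasLA1;Dicer1S2D and 1435 and 1356 bp in KrasLA1, over its start. That region also lies within 2 kb of an end of Fance. Rps12, with 1073 and 1082 bp in KrasLA1;Dicer1S2D and 1135 and 1621 bp in KrasLA1, was also among the 6 widest. In 5 of the 49 main regions with a reference start to compare, at Rpl3l, Rpl4, Rpl18, Rpl24 and Rpl35a, the region did not cover that start.

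The narrowest regions were those of Rps28, Rpl28, Rpl23a, Rpl13, Rpl41 and Rps15, in that order. Rps28, a small subunit protein, had 254 and 252 bp in KrasLA1;Dicer1S2D and 307 and 424 bp in KrasLA1, and both KrasLA1;Dicer1S2D libraries were below both KrasLA1 libraries. Rpl28 had 434 and 348 bp in KrasLA1;Dicer1S2D and 510 and 503 bp in KrasLA1, and Rpl23a 409 and 395 bp in KrasLA1;Dicer1S2D and 538 and 547 bp in KrasLA1, with the same order of the groups. Rpl41 encodes the shortest ribosomal protein, and its groups overlapped, with 517 and 520 bp in KrasLA1;Dicer1S2D and 486 and 689 bp in KrasLA1. Rps15 had the smallest spread over libraries of all 66, with 566 and 561 bp in KrasLA1;Dicer1S2D and 574 and 576 bp in KrasLA1. Its groups still did not overlap in base pairs. Groups apart with KrasLA1;Dicer1S2D narrower were found in base pairs at 36.1% of the main gene-end regions of all genes. After each library was centred on its median log2 width, the Rps15 difference, KrasLA1;Dicer1S2D minus KrasLA1, was 0.14, in the other direction. At Rps28, Rpl28 and Rpl23a it was -0.35, -0.22 and -0.27.

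Members with well-known roles, in the ribosome or beyond it, lay between these extremes. Rpl5 and Rpl11 bind 5S RNA and inhibit Mdm2, which stabilises p53. The Rpl5 region was 873 and 834 bp wide in KrasLA1;Dicer1S2D and 950 and 834 bp in KrasLA1, and the Rpl11 region 489 and 548 bp in KrasLA1;Dicer1S2D and 552 and 834 bp in KrasLA1. For Rps27l, a copy of Rps27 that p53 induces, the widths were 959 and 974 bp in KrasLA1;Dicer1S2D and 1020 and 1185 bp in KrasLA1. In base pairs the KrasLA1 libraries were thus both wider at Rps27l and, by as little as 4 bp, at Rpl11. The groups met at Rpl5. After centring on library medians the log2 differences, KrasLA1;Dicer1S2D minus KrasLA1, were -0.021 at Rps27l and -0.23 at Rpl11. Rplp0, Rplp1 and Rplp2 form the stalk that recruits elongation factors. Rplp0 had 696 and 646 bp in KrasLA1;Dicer1S2D and 689 and 710 bp in KrasLA1. Rplp1 had 752 and 762 bp in KrasLA1;Dicer1S2D and 650 and 863 bp in KrasLA1, and Rplp2 had 542 and 720 bp in KrasLA1;Dicer1S2D and 786 and 787 bp in KrasLA1. Of these 3, only Rplp2 had groups that did not overlap in base pairs, and its centred log2 difference was -0.17. Groups apart with KrasLA1;Dicer1S2D narrower, as at Rps27l, Rpl11 and Rplp2, were found at 36.1% of the main gene-end regions of all genes.

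Rps6 had 976 and 890 bp in KrasLA1;Dicer1S2D and 1032 and 1089 bp in KrasLA1. Rps19 had 976 and 1076 bp in KrasLA1;Dicer1S2D and 1091 and 1083 bp in KrasLA1. At Rps24, like Rps19 mutated in human Diamond-Blackfan anaemia, the widths were 844 and 670 bp in KrasLA1;Dicer1S2D and 818 and 845 bp in KrasLA1. In base pairs the groups overlapped at Rps24 and did not at Rps6 or Rps19. Groups apart with KrasLA1;Dicer1S2D narrower, as at Rps6 and Rps19, were found at 36.1% of the main gene-end regions of all genes. After centring on library medians the log2 differences were -0.021 at Rps6 and 0.080 at Rps19. Rps27a, translated as a fusion with ubiquitin, had 884 and 864 bp in KrasLA1;Dicer1S2D and 891 and 867 bp in KrasLA1. Rpl22, whose loss in mice impairs the development of T cells, had 796 and 875 bp in KrasLA1;Dicer1S2D and 865 and 888 bp in KrasLA1. At both the groups overlapped.

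The genotypes were then compared for regions called in one group only. No ribosomal protein gene had a gained region, one that both libraries of KrasLA1;Dicer1S2D and no KrasLA1 library held (0 of 76, against 0.271% of all genes), and 0 of 76 had a lost one, held by both libraries of KrasLA1 and by no KrasLA1;Dicer1S2D library (against 0.905% of all genes). These counts are near the background. Apart from the main regions there were 19 gene-end regions, of which 8 were called in all 4 libraries, 8 in 2 or 3 and 3 in 1. Those of Rps15a (573 bp in KrasLA1;Dicer1S2D and 528 bp in KrasLA1) and of Rpl10l were called in both replicates 1 and neither replicate 2. The second regions of Rps10 and Rps18 were called in KrasLA1;Dicer1S2D replicate 1 and KrasLA1 replicate 2 only. Rps15, Rps14 and Rps28 each met one of these rules under another setting, and up to 2 genes did with a library left out.

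In base pairs the regions were narrower in the KrasLA1;Dicer1S2D tumours, and so were the main gene-end regions of all genes. The mean over the 66 genes was 808 and 810.2 bp in KrasLA1;Dicer1S2D replicates 1 and 2, and 877 and 930.1 bp in KrasLA1 replicates 1 and 2. Group means were 809 ± 1.7 bp in KrasLA1;Dicer1S2D and 904 ± 37 bp in KrasLA1 (SD, n = 2 each). The median over main regions of all genes was 809 and 774 bp in KrasLA1;Dicer1S2D and 847 and 920 bp in KrasLA1. Over all regions called in 4 libraries, far from genes or near, the medians were 610 and 562 bp in KrasLA1;Dicer1S2D and 604 and 713 bp in KrasLA1, and there the groups overlapped. Both KrasLA1;Dicer1S2D libraries were narrower than both KrasLA1 libraries at 32 of 66 ribosomal protein genes (48.5%), against 36.1% of the 9580 main gene-end regions of all genes and 27.2% of all 26402 regions called in 4 libraries. Both were wider at 1 (1.52%, against 2.86% and 3.66%). After centring each library on its median log2 width, the counts were 6 narrower (9.09%, against 11.8% and 10.8%) and 11 wider (16.7%, against 16.3% and 16.9%), near the background in both directions.

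On the centred scale no region of a ribosomal protein gene passed the test for a difference in width between the genotypes. The median log2 difference in width, KrasLA1;Dicer1S2D minus KrasLA1, was 0.0068 over the 66 regions, with 35 above and 31 below 0, and 0.040 over all 26402. Centring raised every difference by 0.16; without it 8 were above and 58 below 0. limma with Benjamini-Hochberg adjustment over all regions called 0 of 66 wider and 0 of 66 narrower (background 0% each way, 0 of 26402), every adjusted p of the members being 0.999. At an unadjusted p under 0.05 the counts were 0 of 66 and 681 of all regions (2.58%). With 2 libraries a group an exact permutation test of a single value cannot go below 0.333.

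**Figure D5:**
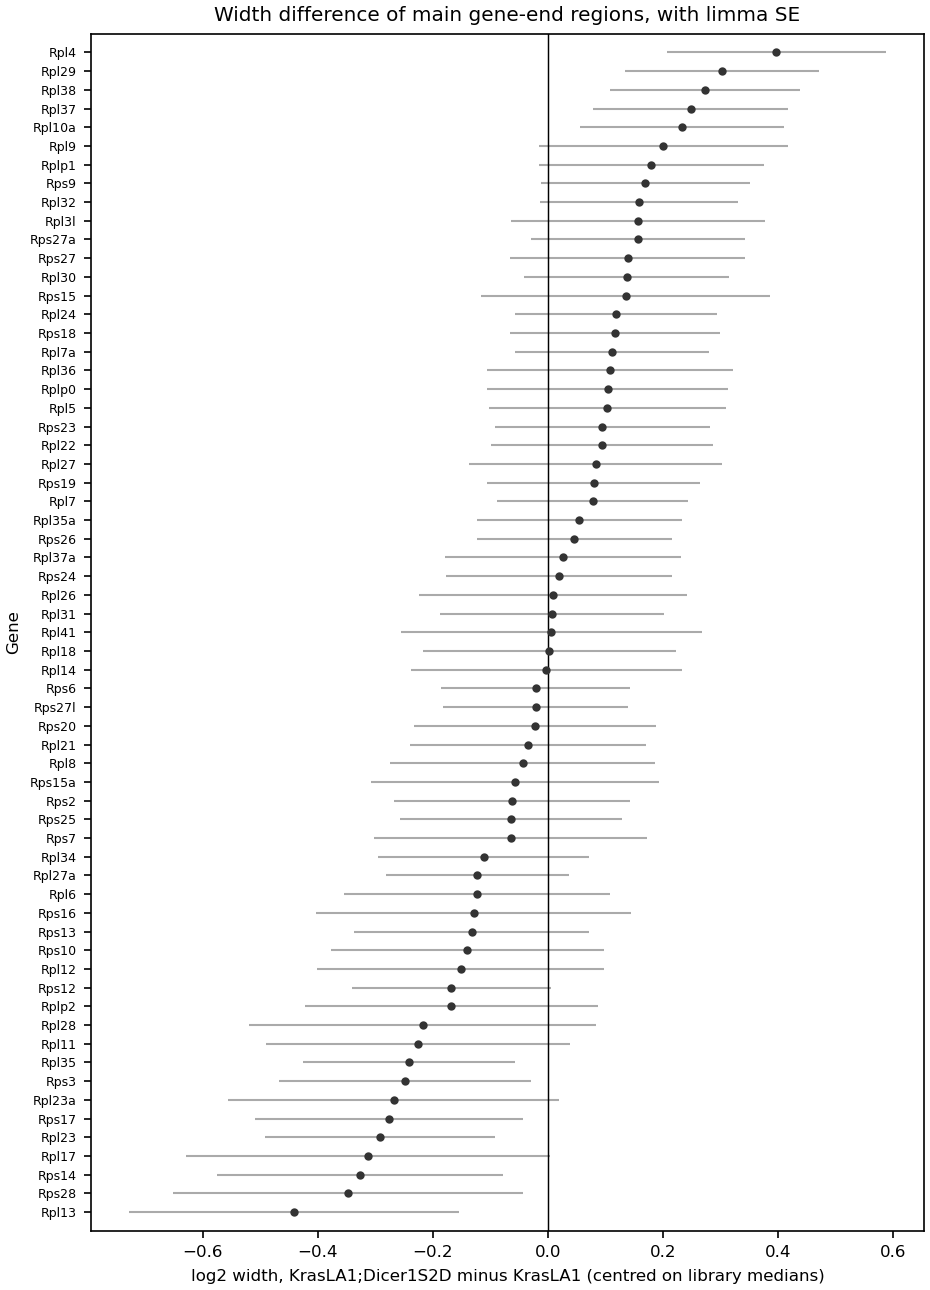
Difference in centred log2 width of the main region, KrasLA1;Dicer1S2D minus KrasLA1, for 63 of the 66 ribosomal protein genes with a main region, with bars of 1 SE from limma. The values drawn run from -0.44 at Rpl13 to 0.40 at Rpl4, and 0 of 66 passed the test.

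The largest width differences did not pass the test, and several moved by over 1.5 times when a single library was left out. Rpl13 had 414 and 436 bp in KrasLA1;Dicer1S2D and 685 and 610 bp in KrasLA1, groups that did not overlap, and a log2 difference of -0.44 ± 0.29 (SE, limma, adjusted p = 0.999), which was -0.22 without KrasLA1 replicate 1. Rps14, whose loss underlies the anaemia of human 5q deletion, had 627 and 918 bp in KrasLA1;Dicer1S2D and 961 and 1182 bp in KrasLA1. Its difference of -0.33 ± 0.25 (SE) was 0.0090 without KrasLA1;Dicer1S2D replicate 1 and -0.66 without replicate 2. The groups of Rps14 did not overlap in base pairs but did after centring. Groups apart in base pairs with KrasLA1;Dicer1S2D narrower, as at Rpl13 and Rps14, were found at 36.1% of the main gene-end regions of all genes. The difference of Rps28 was -0.35 ± 0.30 (SE), and -0.23 without KrasLA1 replicate 2.

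In the other direction Rpl4, a large subunit protein, had 1006 and 1014 bp in KrasLA1;Dicer1S2D and 705 and 1048 bp in KrasLA1, a difference of 0.40 ± 0.19 (SE, limma, adjusted p = 0.999), which was 0.25 without KrasLA1 replicate 1. That region, at an end of Snapc5, did not cover the start of Rpl4, where the widths were 663 and 946 bp in KrasLA1;Dicer1S2D and 774 and 807 bp in KrasLA1, a difference of 0.17. Rpl29 had 1112 and 934 bp in KrasLA1;Dicer1S2D and 893 and 960 bp in KrasLA1, a difference of 0.30 ± 0.17 (SE). Rpl38, needed in mice for translation of Hox messages, had 986 and 941 bp in KrasLA1;Dicer1S2D and 800 and 998 bp in KrasLA1, a difference of 0.27 ± 0.17 (SE). In base pairs the groups overlapped at all 3. After centring, both KrasLA1;Dicer1S2D libraries were wider than both KrasLA1 libraries at all 3, as at 16.3% of the main gene-end regions of all genes. Rpl37, with 1115 and 1149 bp in KrasLA1;Dicer1S2D and 1053 and 1083 bp in KrasLA1, was the only gene of the 66 wider in base pairs in both KrasLA1;Dicer1S2D libraries, by 0.25 ± 0.17 (SE) on the centred log2 scale. That difference was 0.16 without KrasLA1;Dicer1S2D replicate 2 or KrasLA1 replicate 2, and 0.37 without KrasLA1 replicate 1.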

How the data were processed

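The deposited table, per the file headers, holds intervals in mm10 as a chromosome, start, end and name: 1 track of peaks for each of 4 libraries and 1 that joins them. Tools listed, per the submitters' processing notes, without roles or settings, are deepTools 3.5.1, MACS3 3.0.0 and BWA 0.7.12. The sources used here do not give the peak threshold, filters, read shift or read numbers. Groups and replicates came from the labels. Columns of other samples numbered 0.

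Peaks overlapping by 1 bp or more were merged, which gave the authors' 61972 regions exactly. Coordinates are counted from 1. Genes came from a RefSeq table for GRCm38.p6, and starts, strands and promoters from a RefSeq promoter table of the same build. Width per region and library was the only quantity tested: log2, centred on each library's median over regions called in all 4 libraries, fitted with limma 3.58.1 (R 4.3.3, trended) without covariates, p-values adjusted after Benjamini and Hochberg, threshold 0.05. Presence has no test. Python 3.11.15, numpy 2.4.6 and matplotlib 3.10.9 were used. The fit was also run on simulated data with normal noise of a fixed spread, which does not measure its power at the spreads seen here. The limma test measures the spread between 4 mice.

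The members, lists and rules were chosen with earlier results of these data known. Named were genes without a peak in all 4 libraries, the 6 widest and 6 narrowest main regions, the 4 largest differences each way, and 13 genes with known roles. A few genes that the rules name are not reported here one by one and are left out of the figures, but stay in every count. Alternatives covered the window, the merging of peaks, the number of peaks, the symbol rule, the scaling, narrow or split regions, the start region, each library left out and a fit with the replicate number as a block.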

Additional observations from a re-analysis of the deposited data

How the results depend on the processing

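The number of ribosomal protein genes open in every library stayed between 60 of 76 (500 bp windows) and 73 of 85 (wider symbol rule). That rule adds 7 open genes, and also Rpl37rt and Rps27rt, which had no peak in any library. The number was 66 to 67 of 76 with single libraries left out. Genes with a gained region were 0, but 1 (Rps15) with equal numbers of widest peaks and 0 to 2 with single libraries left out. Genes with a lost region were 0, but 1 within 5 kb (Rps14), 1 with the widest 75% of peaks (Rps28) and 0 to 2 with single libraries left out. With a library left out, 1 library fewer has to meet the rule; for the other settings the cause was not tested. The median log2 width difference was -0.16 without centring, which shifts every region alike, and -0.056 to 0.11 with single libraries left out (0.11 without KrasLA1 replicate 1). The mean width of main regions, 856 bp, was 913 bp within 5 kb and 809.9 bp over annotated starts, where other regions and genes are measured, and 832 to 872 bp with single libraries left out. Widths with an adjusted p under 0.05 were 0 of the members' regions under all 17 alternatives, although leaving out KrasLA1;Dicer1S2D replicate 1 or 2 called 5 and 46 of all regions narrower. At an unadjusted p under 0.05 in limma the members' regions numbered 4 of 66 without centring, beside 1165 of all 26402 regions. The difference of Rps28 was 0.15 within 5 kb, where another region became the main one, and that of Rps14 ran from -0.66 (without KrasLA1;Dicer1S2D replicate 2) to 0.0090 (without replicate 1) with single libraries left out.

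A fit with the replicate block, limma with replicate number as a term, gave the same median difference of 0.0068 and called 0 of 66 regions, with 1 member at an unadjusted p under 0.05 (1243 of all regions, against 681 without the block). Deviations of same-numbered libraries correlated at 0.12 over all regions and 0.19 over the members', and the labels tie the number to sex and name no shared animal, batch or day. The depth is unknown, so a peak that was not called need not mean closed chromatin.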
